A study of Mus musculus with 6 samples.

Results

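The genes described here encode the basement membrane that forms the lens capsule, the enzymes that fold its collagens, and the integrins by which lens cells hold on to it. A gene was included when its single symbol began with Col4a, Lama, Lamb or Lamc and a digit, Nid1, Nid2, Itga, Itgb, P4ha or Plod and a digit, or was Hspg2, Agrn, Col18a1, Col15a1, Sparc or Serpinh1. By this rule 59 of 18193 genes on the array were members. RNA came from lenses of Balb/c mice aged 2 days and was read on 3 arrays of transgenic and 3 of wild-type lenses. All samples share the strain, age and tissue, and the labels name neither the transgene nor the promoter that drives it. The study's design text gives 12 lenses for each genotype, does not say how they were divided among replicates, and does not state that each replicate is from its own animals. The p-values thus reflect how far these 6 samples scatter, and that scatter may be partly or wholly technical. The transgenic arrays are called T1 to T3 and the wild-type arrays W1 to W3.

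The lens capsule is a thick basement membrane that encloses the lens. It is laid down by the epithelium in front and by the fiber cells behind. Its networks of laminin and type IV collagen are joined by nidogens and by heparan sulfate proteoglycans such as perlecan. Lens cells bind these proteins through integrins, paired alpha and beta subunits that connect the matrix to the actin cytoskeleton inside the cell. Collagen chains are hydroxylated and chaperoned in the endoplasmic reticulum before they can form stable triple helices.

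Transcripts of tissues outside the lens were found on the arrays, and those of skin, fibroblasts and skeletal muscle stood far higher in T3. All 10 measured markers of cornea and skin epithelium, 9 of 10 of fibroblasts and 9 of 10 of skeletal muscle were highest in T3. The levels are on the log2 scale, summed over each list. The summed skin level was 14.6 in T3, 9.62 to 9.92 in T1 and T2 and 9.82 to 10.7 in wild-type arrays. The fibroblast level was 13.8 in T3, 10.4 to 10.7 in the other transgenic arrays and 10.2 to 10.6 in wild-type arrays. The muscle level was 13.0 in T3, 8.96 to 9.13 in the other transgenic arrays and 9.29 to 9.64 in wild-type arrays. Pigmented epithelium markers were highest in T2, at 12.3, against 10.7 in T1, 11.3 in T3 and 10.7 to 11.0 in wild-type arrays. Neural retina markers were present on every array, at 11.2 to 11.9 in transgenic and 11.6 to 12.2 in wild-type arrays. Members in which T3 stood apart are given with and without it.

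Of the 59 genes, 3 were higher and 2 lower in transgenic lenses past the test, and 54 did not pass (limma's moderated test, adjusted p under 0.05 over all genes). The perlecan gene Hspg2, the laminin chain gene Lama5 and the laminin receptor gene Itga6 rose by 1.64-fold, 1.45-fold and 1.52-fold. The prolyl hydroxylase gene P4ha2 fell by a factor of 1.41 and the laminin chain gene Lamb2 by a factor of 1.34. Among all genes 1.93% were higher and 2.61% lower (4.55% in either direction), against 5.08% and 3.39% of the members. Among all genes at or above the median level the shares were 2.53% and 3.34%, against 6.67% and 4.44% of the 45 members there. Without T1, T2 or W2 no member passed (limma; 11, 13 and 14 members had an unadjusted p under 0.05), without T3 Hspg2 and Lama5 did, without W1 Hspg2 alone and without W3 Itga6 alone. Each of these fits had fewer arrays, and fewer genes of the whole array passed in them too.

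The differences of the members were small. They ran from -0.49 for P4ha2 to 0.71 for Hspg2 on the log2 scale, with a median of 0.099 against 0.011 over all genes. In 41 of the 59 members (69.5%) the transgenic mean was the higher, as it was in 52.3% of all genes. The groups did not overlap, with the transgenic arrays higher, in 8 members (13.6%, against 15.3% of all genes), and with the transgenic arrays lower in a further 8 (13.6%, against 13.5%). An unadjusted p under 0.05 was found for 15 members (25.4%) and for 22.4% of all genes. This share and those of groups that did not overlap lay close to the background. Of the members, 45 had a mean at or above 5.34, the median of all probe sets, and all 5 called genes were among them.

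**Figure D1:**
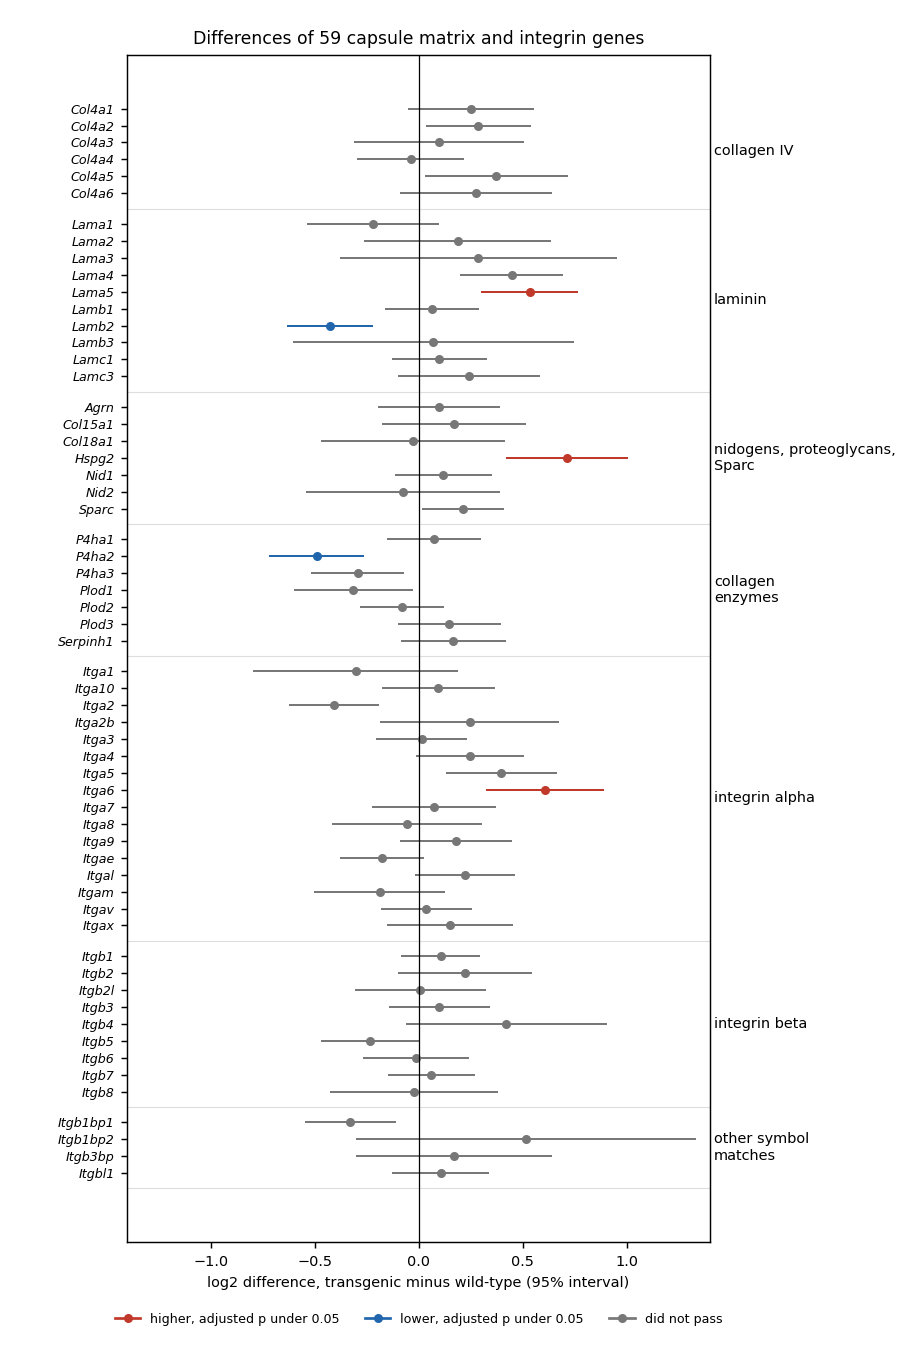
Log2 difference (transgenic minus wild-type, horizontal axis) of each of the 59 genes, grouped by role, with limma's 95% interval; red marks genes higher and blue genes lower at an adjusted p under 0.05. The 5 coloured genes are Lama5, Lamb2, Hspg2, P4ha2 and Itga6, and no grey point lies beyond 0.52.

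RefSeq windows of 250 bases before to 50 bases after a gene's start (build GRCm38.p6) were matched by symbol for 43 of the 59 genes, in 48 windows. Those of 4 called genes are shown because their transcripts passed the test. Itga6 also passed but had no window, so the motif counts do not cover it. Capitals mark the GC box letters GGGCGG on either strand, the core of Sp1 binding sites. The windows are Hspg2 at chr4:137468553-137468852 on the plus strand, Lama5 at chr2:180225810-180226109 on the minus strand, P4ha2 at chr11:54100674-54100973 on the plus strand and Lamb2 at chr9:108479612-108479911 on the plus strand.
Hspg2: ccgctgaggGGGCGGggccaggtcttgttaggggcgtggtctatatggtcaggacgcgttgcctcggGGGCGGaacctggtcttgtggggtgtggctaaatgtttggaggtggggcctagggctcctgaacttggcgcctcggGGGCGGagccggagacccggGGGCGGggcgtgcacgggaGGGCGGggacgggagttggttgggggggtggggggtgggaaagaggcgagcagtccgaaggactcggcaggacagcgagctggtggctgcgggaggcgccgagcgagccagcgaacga
Lama5: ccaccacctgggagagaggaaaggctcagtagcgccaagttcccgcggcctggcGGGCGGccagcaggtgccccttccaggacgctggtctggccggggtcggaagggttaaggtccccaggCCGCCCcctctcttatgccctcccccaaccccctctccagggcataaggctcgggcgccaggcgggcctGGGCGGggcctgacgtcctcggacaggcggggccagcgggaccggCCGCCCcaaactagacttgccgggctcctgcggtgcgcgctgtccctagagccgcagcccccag
P4ha2: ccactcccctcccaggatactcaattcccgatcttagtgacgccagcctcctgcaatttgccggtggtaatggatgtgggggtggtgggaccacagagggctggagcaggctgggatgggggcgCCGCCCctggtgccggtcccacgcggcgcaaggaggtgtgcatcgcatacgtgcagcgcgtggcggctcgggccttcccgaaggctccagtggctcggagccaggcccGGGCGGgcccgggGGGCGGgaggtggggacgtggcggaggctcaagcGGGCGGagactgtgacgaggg
Lamb2: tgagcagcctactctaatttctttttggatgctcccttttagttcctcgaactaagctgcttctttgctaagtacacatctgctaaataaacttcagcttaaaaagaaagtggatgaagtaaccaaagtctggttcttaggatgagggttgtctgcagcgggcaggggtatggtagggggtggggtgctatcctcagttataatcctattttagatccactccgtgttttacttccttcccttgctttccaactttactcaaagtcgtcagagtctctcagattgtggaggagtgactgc
The box occurred 5 times in the Hspg2 window, 4 times in that of Lama5 and 4 times in that of P4ha2, and these letters are not in the Lamb2 window. Of the members' windows 56.2% held it, and of all 32851 RefSeq windows of that length 35.7%. The forkhead core TGTTTAC, searched on both strands because Foxe3 encodes a forkhead factor, was in 0 of the 48 windows and in 3.65% of all windows. The letters TATAAA were in 2 of the 48 windows and in 13.6% of all. The GC box matches do not overlap each other in the sequences shown, and neither of the other motifs occurs in them.

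Type IV collagen is the main collagen of the capsule. The chains encoded by Col4a1 and Col4a2 assemble with each other, and their genes lie head to head with starts so close that their windows share 78 bases. The windows of both genes are shown for that reason, with the shared bases in capitals. They lie at chr8:11312777-11313076 on the minus strand for Col4a1 and at chr8:11312555-11312854 on the plus strand for Col4a2.
Col4a1: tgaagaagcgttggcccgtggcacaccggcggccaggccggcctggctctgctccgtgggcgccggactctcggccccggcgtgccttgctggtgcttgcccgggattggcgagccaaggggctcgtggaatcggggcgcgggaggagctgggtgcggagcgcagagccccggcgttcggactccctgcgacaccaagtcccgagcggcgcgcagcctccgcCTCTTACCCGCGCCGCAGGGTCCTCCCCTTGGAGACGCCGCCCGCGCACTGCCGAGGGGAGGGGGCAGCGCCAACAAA
Col4a2: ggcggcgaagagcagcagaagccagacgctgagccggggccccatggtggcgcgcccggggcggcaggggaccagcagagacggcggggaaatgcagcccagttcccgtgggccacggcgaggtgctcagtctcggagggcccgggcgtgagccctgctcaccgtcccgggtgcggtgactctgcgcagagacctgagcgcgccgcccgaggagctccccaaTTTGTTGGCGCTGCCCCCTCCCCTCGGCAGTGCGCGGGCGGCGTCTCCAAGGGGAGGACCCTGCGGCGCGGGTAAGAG
None of the 6 collagen IV genes passed the test (limma; 2 had an unadjusted p under 0.05), and 5 of the 6 differences were above 0. Col4a1 stood at 12.70, 12.40 and 12.35 in T1 to T3 and at 12.05, 12.25 and 12.39 in W1 to W3 (normalised log2 values). T1 was the highest array and W1 the lowest, and the groups overlapped. Col4a2 stood at 11.68, 11.59 and 11.49 in T1 to T3 and at 11.12, 11.39 and 11.40 in W1 to W3. Every transgenic array lay above every wild-type array, and W1 was again the lowest. The differences were 0.25 ± 0.13 for Col4a1 and 0.29 ± 0.11 for Col4a2 (SE; limma adjusted p = 0.293 and 0.167), with 95% intervals of -0.04 to 0.55 and 0.04 to 0.53.

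The other collagen IV chains form networks that replace or add to the first in mature basement membranes. Col4a5 stood at 11.27, 11.04 and 10.74 in T1 to T3 and at 10.78, 10.67 and 10.48 in W1 to W3, a difference of 0.37 ± 0.15 (SE; limma adjusted p = 0.188). T3 lay below W1, so the groups overlapped. Without T3 its difference was 0.51 (limma adjusted p = 0.0728). Col4a6 differed by 0.28, Col4a3 by 0.10 and Col4a4 by -0.04, none of them past the test. T1 was the highest of the 6 arrays for 5 of the 6 collagen IV genes, and W2 for Col4a4. A second probe set of Col4a1 differed by 0.35 and one of Col4a5 by 0.18, while 2 further probe sets of Col4a4 differed by 0.31 and 0.08.

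Laminins are trimers of an alpha, a beta and a gamma chain, and the trimer of the Lama1, Lamb1 and Lamc1 products is the laminin of early basement membranes. These 3 genes did not pass. Lama1 stood at 8.20, 8.23 and 8.07 in T1 to T3 and at 8.08, 8.54 and 8.52 in W1 to W3, a difference of -0.22 ± 0.14 (SE). W1 lay among the transgenic arrays, apart from W2 and W3. Lamb1 differed by 0.06 (95% interval -0.16 to 0.28) and Lamc1 by 0.10 (-0.12 to 0.32). After shifting arrays to a common median these became -0.03 and -0.01. Further probe sets above the median level differed by -0.02 and -0.16 for Lamb1 and by -0.22 for Lamc1. The groups of that Lamc1 probe set were apart, but it did not pass.

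Lama5, whose chain replaces that of Lama1 in many maturing basement membranes, rose. It stood at 8.15, 8.03 and 7.84 in T1 to T3 and at 7.48, 7.48 and 7.46 in W1 to W3. The wild-type arrays lay within a narrow band and every transgenic array was above it, T1 farthest and T3 nearest. The difference was 0.53 ± 0.10 (SE; limma adjusted p = 0.0289). The next probe set of the gene stood at 7.46, 7.59 and 7.44 against 7.08, 7.28 and 7.42. Its groups were just apart and it differed by 0.23, which did not pass. The dimmest probe set differed by -0.09. The call was kept without T3 (adjusted p = 0.0172) and lost without T1, T2, W1, W2 or W3 (0.0628 to 0.108), and after shifting the arrays to a common median (0.0569) or with the mean over its probe sets (difference 0.23, adjusted p = 0.188).

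Lamb2, which encodes a beta chain that joins Lama5 in laminins of nerve, muscle and vessel basement membranes, fell. Its values were 6.31, 6.44 and 6.36 in transgenic and 6.87, 6.82 and 6.69 in wild-type lenses. The groups were apart, with similar spread in both. The difference was -0.43 ± 0.09 (SE; limma adjusted p = 0.0384), from a single probe set. It ran from -0.48 to -0.38 over the 6 fits without 1 array, whichever of T1 to T3 or W1 to W3 was left out, and passed in 0 of them (adjusted p from 0.0755 to 0.132).

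Lama4, encoding a laminin chain of vessel walls, stood at 6.03, 6.11 and 6.31 in T1 to T3 and at 5.82, 5.67 and 5.62 in W1 to W3. The groups did not overlap, and the difference of 0.45 ± 0.10 (SE) fell just short of the threshold (limma adjusted p = 0.0559). A second probe set, far below the median level, differed by -0.10. Of 12 endothelial markers 2 had a difference above 0, and the median was -0.10. Their summed level ran from 10.8 to 11.0 in transgenic and 10.8 to 11.2 in wild-type lenses (log2 of the sum), and their part in the Lama4 values was not tested. Of the 12, Tek, which encodes an angiopoietin receptor, was called higher, at 0.49 ± 0.11 (SE; limma adjusted p = 0.0465). In whole lenses, a change in the number of cells of a type and a change in RNA per cell cannot be told apart.

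**Figure D2:**
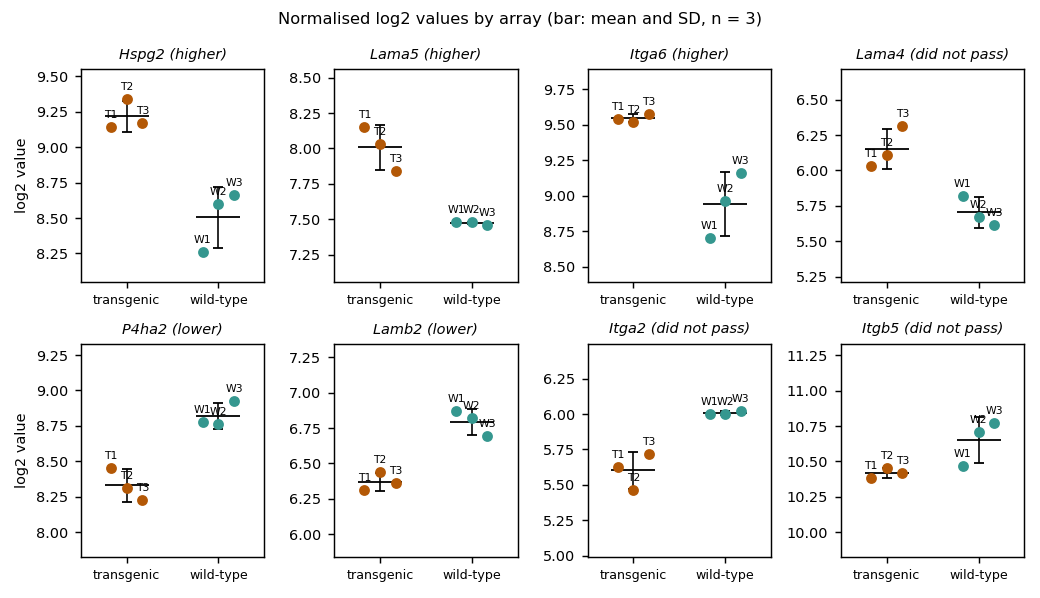
Normalised log2 values (vertical axis) of 8 genes in each array, with the mean and SD of 3 arrays per genotype; each panel spans the same range of 1.5 log2 units. In Hspg2, Lama5, Itga6 and Lama4 the transgenic arrays lie above all wild-type arrays, and in P4ha2, Lamb2, Itga2 and Itgb5 below them.

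In Lama2, Lama3 and Lamb3 the transgenic arrays did not move together. Lama3 and Lamb3 encode chains of the laminin that anchors the epidermis, and Lama2 the laminin chain of muscle fibers. Lama3 stood at 5.26 and 5.24 in T1 and T2 but at 6.24 in T3, against 5.004, 5.21 and 5.67 in W1 to W3. Lamb3 stood at 4.03 and 4.38 in T1 and T2, at 5.32 in T3, and at 4.49, 4.42 and 4.61 in W1 to W3. Lama2 stood at 6.65 and 6.62 in T1 and T2, at 7.34 in T3, and at 6.51, 6.74 and 6.79 in W1 to W3. In each of the 3 genes T3 was the highest array, and in Lama2 and Lamb3 the other 5 lay closer together. In Lama3 the other 5 spanned 0.67, more than the 0.57 by which T3 exceeded the next array. Their differences were 0.29, 0.07 and 0.19 with all arrays and -0.04, -0.30 and -0.04 without T3, none past the test. The part of the skin, fibroblast and muscle transcripts of T3 in these values was not tested. Lamc3 differed by 0.24.

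In 6 of the 59 members T3 exceeded the highest other array by more than the range of the other 5. Besides Lama2 and Lamb3 these were Itgb4, Itgb1bp2, Col15a1 and Serpinh1. Itgb4, the partner of Itga6 in the hemidesmosomes of skin, stood at 6.36 in T3 and 5.25 to 5.67 elsewhere, and its difference went from 0.42 to 0.18 without T3. Itgb1bp2 encodes melusin, a muscle protein that binds the integrin beta 1 tail, and stood at 6.08 in T3 and 4.41 to 4.76 elsewhere. Its difference went from 0.52 to 0.05 without T3. Among the 5 called genes T3 was the highest array only for Itga6, by 0.04 over T1.

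**Figure D3:**
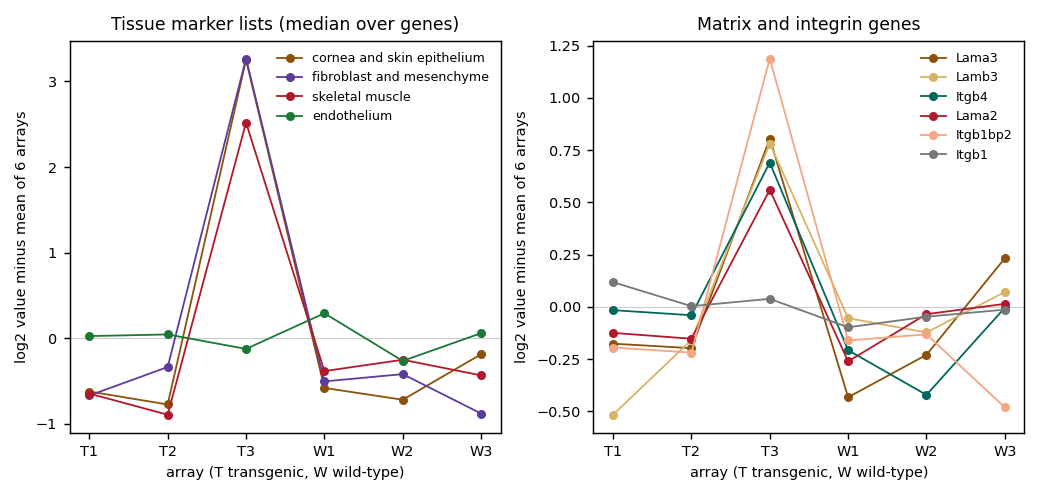
Deviation from the mean of the 6 arrays (log2, vertical axis) by array, for tissue marker lists at left (median over the genes of each list) and for single genes at right. Skin, fibroblast and muscle markers and Lama3, Lamb3, Itgb4, Lama2 and Itgb1bp2 peak in T3, while endothelial markers and Itgb1 do not.

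Perlecan, the product of Hspg2, is a large heparan sulfate proteoglycan that links laminin and collagen IV and holds growth factors in the capsule. Hspg2 stood at 9.14, 9.34 and 9.17 in T1 to T3 and at 8.26, 8.60 and 8.66 in W1 to W3. All transgenic arrays lay above all wild-type arrays, and W1 was the lowest. The difference was 0.71 ± 0.12 (SE; limma adjusted p = 0.0231), the largest among the members. A second probe set stood at 8.26, 8.44 and 8.03 against 7.69, 8.37 and 8.24 with overlapping groups, and differed by 0.14. The call held without T3 or W1 (adjusted p = 0.0365 and 0.0331) and was lost without T1, T2, W2 or W3 (0.0527 to 0.0957), and with the mean of the gene's probe sets (difference 0.43, adjusted p = 0.163).

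The other linkers and proteoglycans of the capsule did not pass. Sparc, which encodes a collagen-binding protein made by lens epithelium and fibers, stood at 12.65 in each of the 3 transgenic arrays and at 12.34, 12.45 and 12.52 in wild-type arrays. The groups were apart, and the difference was 0.21 ± 0.08 (SE; limma adjusted p = 0.186). Its second probe set differed by 0.37 and a further, dimmer one by -0.01. Nid1, whose product bridges laminin and collagen IV, differed by 0.12 (95% interval -0.11 to 0.35), and its second bright probe set by -0.19. Nid2 differed by -0.08, the agrin gene Agrn by 0.10, Col18a1, the source of endostatin, by -0.03 and Col15a1 by 0.17, or by 0.01 without T3. Col18a1 ranged widely within each genotype, from 9.26 to 9.64 and from 9.05 to 9.78, and its 95% interval runs from -0.47 to 0.41.

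Of the 7 genes for collagen enzymes and chaperones 1 fell, none rose and 6 did not pass. Over all genes 2.61% were lower and 1.93% higher. P4ha2, which encodes a catalytic subunit of collagen prolyl 4-hydroxylase, stood at 8.45, 8.31 and 8.22 in T1 to T3 and at 8.77, 8.76 and 8.93 in W1 to W3. The groups were clearly apart, with the highest transgenic array below the lowest wild-type array. The difference was -0.49 ± 0.10 (SE; limma adjusted p = 0.0331), from a single probe set. It stayed between -0.55 and -0.43 in the 6 fits without 1 array but passed in 0 of them (adjusted p from 0.0518 without T1 to 0.117 without T2).

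The genes of the other catalytic subunits did not pass, and their difference from P4ha2 was not tested. P4ha1 differed by 0.07 (95% interval -0.15 to 0.29), with its groups overlapping. P4ha3, below the median level, stood at 4.80, 4.67 and 4.63 in T1 to T3 and at 5.06, 4.87 and 5.05 in W1 to W3, a difference of -0.29 ± 0.09 (SE; limma adjusted p = 0.124). Its groups were apart, but so dim a probe set may sit near background. Of the lysyl hydroxylases, which prepare collagen for cross-links, Plod1 differed by -0.31 ± 0.12 (SE; limma adjusted p = 0.185), Plod2 by -0.08 and Plod3 by 0.15. Serpinh1, which encodes the collagen chaperone HSP47, differed by 0.17 and by 0.07 without T3.

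Integrin alpha 6 is a receptor for laminin in lens epithelium and fibers. Itga6 stood at 9.54, 9.52 and 9.58 in T1 to T3 and at 8.70, 8.96 and 9.16 in W1 to W3. The transgenic arrays were nearly equal and all above the wild-type arrays, which were more spread out. The difference was 0.61 ± 0.12 (SE; limma adjusted p = 0.0344). The second probe set also rose, by 0.47 ± 0.09 (SE; adjusted p = 0.0308 over all probe sets), with values of 9.37, 9.19 and 9.38 against 8.78, 8.88 and 8.86. The call on the brighter probe set held without W3 (adjusted p = 0.0408) and was lost without T1, T2, T3, W1 or W2 (0.0521 to 0.112).

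The beta subunit that pairs with alpha 6 in lens did not move by as much. Itgb1 stood at 10.71, 10.59 and 10.63 in T1 to T3 and at 10.49, 10.54 and 10.58 in W1 to W3. The groups were just apart, and the difference of 0.11 (95% interval -0.08 to 0.29) did not pass. Its second probe set differed by -0.11. Itgb4, whose product also pairs with alpha 6, differed by 0.42, or by 0.18 without T3, and did not pass. Itga3, encoding another laminin receptor subunit, differed by 0.02 and its other bright probe sets by -0.33 and -0.07. The difference between the changes of Itga6 and of Itgb1, Itgb4 or Itga3 was not tested.

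Itga2 encodes a subunit of a collagen receptor. It stood at 5.62, 5.46 and 5.72 in T1 to T3 and at 5.999, 6.003 and 6.02 in W1 to W3. The wild-type values were almost identical and above all transgenic values, and the difference of -0.41 ± 0.09 (SE) missed the threshold narrowly (limma adjusted p = 0.0503). Itga1, the subunit of a related collagen receptor, differed by -0.30 with overlapping groups. Itga5, the fibronectin receptor subunit, stood at 6.03, 5.65 and 5.77 against 5.36, 5.42 and 5.47, a difference of 0.40 ± 0.11 (SE; limma adjusted p = 0.0917). Its groups were apart, while a second probe set differed by 0.09.

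Integrins that contain alpha V bind vitronectin and other ligands with an exposed RGD motif and can release active TGF-beta. Itgav stood at 10.22, 10.24 and 10.16 in T1 to T3 and at 10.02, 10.26 and 10.22 in W1 to W3 on its brightest probe set, a difference of 0.04. A second probe set of the gene stood at 6.87, 6.53 and 6.72 in T1 to T3 and at 7.33, 7.30 and 7.31 in W1 to W3. That probe set fell by 0.61 on the log2 scale (SE 0.10; limma adjusted p = 0.0202 over all probe sets). The probe sets of Itgav therefore gave different answers.

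Itgb5, whose product pairs with alpha V, stood at 10.38, 10.45 and 10.42 in T1 to T3 and at 10.47, 10.71 and 10.77 in W1 to W3. The groups were just apart, W1 lying near the transgenic arrays, and the difference was -0.23 ± 0.10 (SE; limma adjusted p = 0.222). All 4 of its probe sets differed downward, and 1 of them passed over all probe sets, at -0.44 ± 0.09 (SE; limma adjusted p = 0.0342). Itgb8 and Itgb6, other partners of alpha V, differed by -0.02 and -0.01, and Itgb3 by 0.10. Counted by probe set, 8 of the members' 121 passed (6.61%), from 7 genes, against 4.25% of all probe sets with a single symbol. A second probe set at or above the median level existed for 22 members, and in 12 of them it differed in the same direction.

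**Figure D4:**
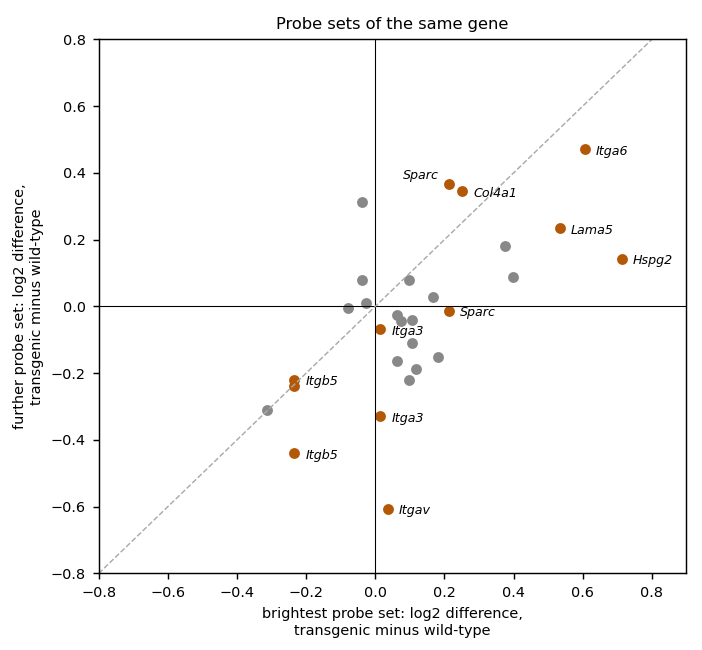
Log2 difference (transgenic minus wild-type) of the brightest probe set of a gene (horizontal axis) against each further probe set at or above the median level (vertical axis), 29 points from 22 genes; the dashed line marks equal differences. Points for Hspg2 and Lama5 lie below the line, Itga6 lies closer to it, and the Itgav point shows 0.04 against -0.61.

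Several integrins belong to blood cells rather than to lens cells. Itgal, Itgam, Itgax, Itgae, Itgb2, Itgb7 and Itgb2l encode subunits known mainly from leukocytes, and their differences ran from -0.19 to 0.22, none past the test. Leukocyte markers differed by a median of 0.06, and their summed level ran from 10.3 to 10.6 in transgenic and 10.0 to 10.6 in wild-type arrays. Itga2b, the platelet integrin subunit, stood at 6.89, 7.06 and 7.03 in T1 to T3 and at 6.29, 7.03 and 6.92 in W1 to W3, W1 alone being low. The summed level of 7 platelet markers was 8.58 to 8.84 and 8.53 to 8.59. Of the remaining alpha subunits, Itga4 differed by 0.25 (0.16 without T3), Itga7 by 0.08, Itga8 by -0.05, Itga9 by 0.18 and Itga10 by 0.10.

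The symbol rule also took in 4 genes that are not integrins. Itgb1bp1 encodes ICAP1, which binds the integrin beta 1 tail and keeps the receptor inactive. It stood at 8.52, 8.38 and 8.52 in T1 to T3 and at 8.77, 8.72 and 8.92 in W1 to W3, a difference of -0.33 ± 0.09 (SE; limma adjusted p = 0.0903). The groups were apart, although the test was not passed. Itgb3bp, a centromere protein gene, differed by 0.17 and the secreted integrin-like gene Itgbl1 by 0.11.

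**Figure D5:**
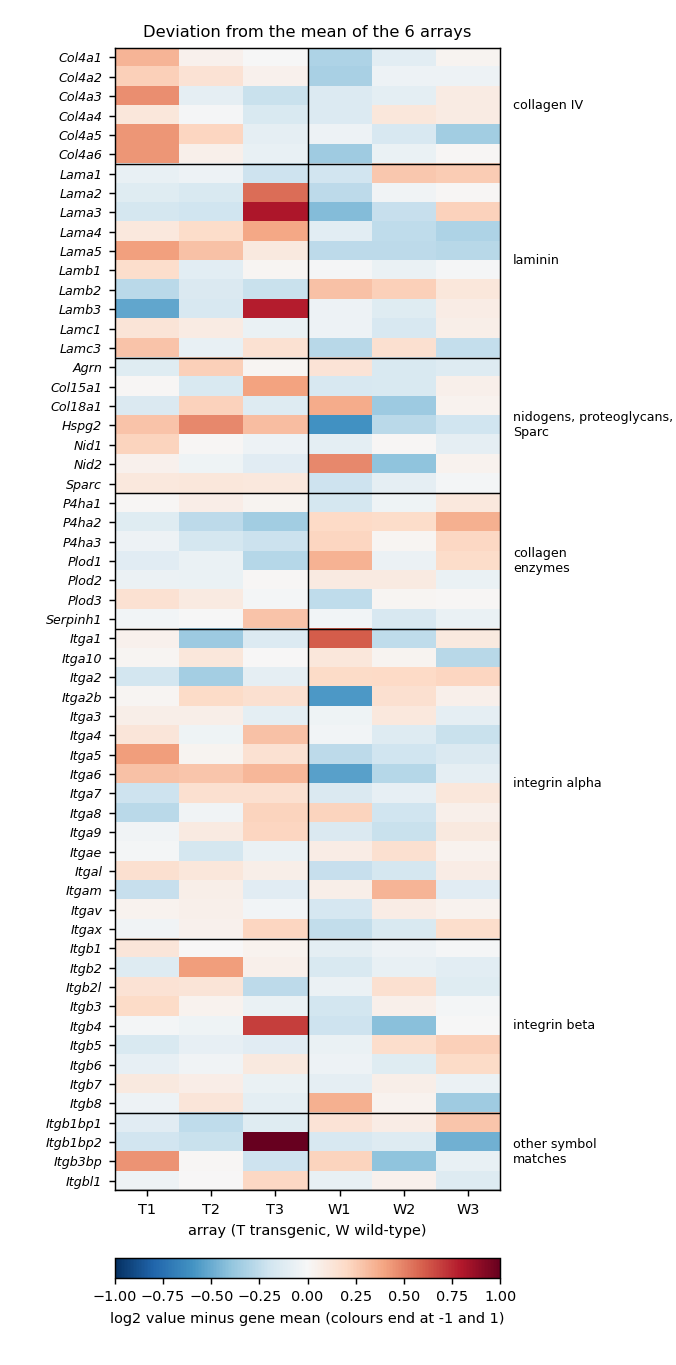
Log2 value minus the gene's mean over 6 arrays for the 59 genes (rows, grouped by role) in each array (columns), with colours ending at -1 and 1. Most collagen IV genes are highest in T1, several members are lowest in W1, and Lama3, Lamb3, Itgb4 and Itgb1bp2 stand out in T3.

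Across the members, W1 was the lowest of the 6 arrays for 22 of 59 genes and T1 the highest for 17. The same counts were not made over all genes, so they cannot be read as particular to the members. T1 was the highest for 5 of the 6 collagen IV genes and W1 the lowest for 3 of them. With quantile normalization these patterns lie between arrays of equal overall distribution. W1 had the widest spread of deposited values, with an upper quartile of 7.21 against 7.09 to 7.12 on the other arrays.

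Proteins that connect integrins to actin were listed separately from the members. Of 21 measured focal adhesion genes, 3 rose, 1 fell and 17 did not pass, where 1.93% of all genes were higher and 2.61% lower. The median difference was 0.21, or 0.16 without T3, against 0.011 over all genes. T3 was the highest array for 7 of the 21, and the part of its skin, fibroblast and muscle transcripts here was not tested. On the deposited values and after shifting arrays to a common median 1 of the list, Tns3, was higher, and with the mean over probe sets Tns3, Tns1 and Parva did not pass. Lims1, which encodes PINCH1, the adaptor of integrin-linked kinase, stood at 8.54, 8.62 and 8.69 in T1 to T3 and at 9.48, 9.59 and 9.62 in W1 to W3. The groups lay far apart, and Lims1 fell by 0.95 on the log2 scale (SE 0.09; limma adjusted p = 0.00154). Its next probe sets differed by -1.18 and -1.07, and the call held without any 1 array (adjusted p up to 0.0141). Parva, encoding the parvin of the same complex, rose by 0.54 ± 0.10 (SE; limma adjusted p = 0.0315), but a dimmer probe set differed by 0.01 and the call held only without T3.

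The tensins, which bind the tails of beta integrins, were higher on their brightest probe sets. Tns3 stood at 10.12, 10.17 and 9.99 against 9.33, 9.41 and 9.41 and rose by 0.71 ± 0.09 (SE; limma adjusted p = 0.00511), which held without any 1 array. Tns1 rose by 0.61 ± 0.14 (SE; limma adjusted p = 0.0498), held without W1 and was lost without any other array (adjusted p up to 0.142). Tns2, at 0.56, the talin gene Tln1, at 0.34, and the integrin-linked kinase gene Ilk, at 0.26, did not pass. The next, dimmer probe sets of Tns3 and Tns1 differed by -0.09 and 0.24.

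Of the other matrix receptors 5.88% were called, and of the other basement membrane components 3.57%. Both shares lay near the 4.55% of all genes called in either direction. Of 17 further receptors for matrix, Sdc2, which encodes the heparan sulfate proteoglycan syndecan 2, rose by 0.47 ± 0.09 (SE, adjusted p = 0.0319 by limma). The other 16 stayed short of the threshold. Its further bright probe sets differed by 0.28 and -0.20. Of 28 other basement membrane components, Tinagl1, which encodes a secreted matrix protein, fell by 0.51 on the log2 scale (SE 0.10, adjusted p = 0.0303 by limma). The other 27 stayed short of the threshold. Sdc2 did not pass on the deposited values, after the common-median shift or with the mean over probe sets. The calls of both Sdc2 and Tinagl1 held without W1 and were lost without any other array (adjusted p up to 0.110 and 0.113). Of 25 genes for collagen folding and cross-linking, 0 passed (limma; 2 had an unadjusted p under 0.05), with Sec23a at 0.35, Colgalt2 at 0.30 and P3h4 at -0.23. The medians of these lists were 0.17, 0.19 and 0.03, against 0.011 over all genes. Without T3 they were 0.12, 0.0037 and -0.01. T3 was the highest array for 17 of the 28 basement membrane components, and the share of all genes highest in T3 was not counted. The part of its skin, fibroblast and muscle transcripts in that list was not tested.

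Markers of lens fibers and lens epithelium were present on every array. The fiber markers summed to 16.8 to 16.9 in transgenic and 16.96 to 17.01 in wild-type lenses (log2 of the sum). Of the 11 fiber markers 3 were called lower, where 2.61% of all genes were lower. The epithelium markers summed to 15.4 and to 14.9 to 15.0, with Foxe3 as the single call of 9. That sum includes Foxe3 itself, whose difference was 4.64. The median difference of the 9 was -0.08, and 5 of them were below 0. Of the other tissues, 16 neural retina markers had a median difference of -0.40 with 1 lower, 9 of pericytes and smooth muscle 0.07 with 1 higher, 8 of pigmented epithelium 0.45 with 0 called (limma; 1 had an unadjusted p under 0.05), and 4 erythroid markers -0.06 with 0 called (limma; 0 at an unadjusted p under 0.05). Foxe3, a forkhead gene of the lens epithelium, averaged 13.38 ± 0.04 on the transgenic arrays against 8.74 ± 0.17 on the wild-type ones (SD, n = 3). Of 18193 genes 352 were higher and 475 lower. After shifting the arrays to a common median in place of quantile normalization 254 were higher and 673 lower. With 3 arrays a group, precision is limited throughout.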

How the data were processed

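The deposited table held 1 log2 value for each of 45101 probe sets on 6 arrays, made by the authors by a summary and normalization not given in the sources used here; the log2 scale was read from the range of the values. The 64 control probe sets were set aside. Upper quartiles differed by 0.12 between arrays, above the limit of 0.1 set for it, so values were quantile normalised (limma 3.58.1, R 4.3.3). GEO's platform annotation gave 1 gene symbol for 34945 probe sets, several for 932 and none for 9160; 99.42% of the single symbols were matched by gene ID to the RefSeq table of GRCm38.p6 and updated. Each gene took the probe set with the highest mean. Fits used lmFit and eBayes on all 18193 genes, with Benjamini-Hochberg adjustment and a threshold of 0.05; intervals use the moderated SE. In 5 simulated sets of 18193 genes with independent noise, 200 genes were changed in each. The test found 23.6% of shifts of 0.5 (log2) and 89.2% of shifts of 1. In the data themselves 827 genes passed, so these rates may not carry over. Named were all called members, 21 capsule and integrin genes, the 3 smallest p values among members not called and the brightest member in each role group, and, in the pathway lists, called genes or the 3 with the smallest p. Remaining members, further lists and Itgb1bp1, Itgb1bp2, Lama2, Lama3, Lamb3, Tns2, Tln1, Ilk and Tek were chosen after their values were seen. The members and lists were chosen with earlier results of these data known. Alternatives were the deposited values, centring, a filter on dim probe sets, the mean of probe sets, every probe set, trended variances, array weights, a replicate block and leaving out each array.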

Additional observations from a re-analysis of the deposited data

How the results depend on the processing

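Over all genes, array weights gave 599 higher and 790 lower, and leaving out each array in turn gave 70 to 249 higher and 153 to 390 lower. Of the members, 1 was higher when probe sets of a gene were averaged, and 4 were lower with every probe set on its own. With 1 array left out 0 to 2 members were higher and 0 lower. The causes of these shifts were not tested, and the fits with 1 array left out also had fewer arrays. With the replicate number as a block 69 genes were higher and 154 lower, and 0 members were higher and 0 lower (limma; 14 had an unadjusted p under 0.05). Deviations of arrays with the same number correlated at -0.05, 0.08 and 0.03 across genes, and those of different numbers at -0.12 to 0.07. With 3 arrays a group these values cannot settle whether the numbers mark a pairing, and the labels do not state one. Lama4 and Itga2 passed with dim probe sets left out (adjusted p = 0.0425 and 0.0379) and with array weights (0.0263 and 0.0257), and Itga2 also after centring (0.0465) and with the mean of probe sets (0.0422).

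Among the members named by the rule, 10 turned sign in some setting. Their brightest probe sets did not pass in any of the settings run, while a dimmer one of Itgav did when each probe set was tested on its own. Outside the rule, Lama2, Lama3, Lamb3 and Col4a4 turned without T3 (-0.045, -0.043, -0.30 and 0.029). On the deposited values Itga3 was -0.029, Itgav -0.022 and P4ha1 -0.0033. After centring on a common median Agrn was -0.011, Itga3 -0.065, Itgav -0.058, Lamb1 -0.029, Lamc1 -0.0099 and P4ha1 -0.040. With the average over probe sets Agrn was -0.024, Itga3 -0.13, Itgav -0.14, Lamb1 -0.018, Lamc1 -0.061 and Nid1 -0.027. With array weights Col18a1 was 0.14, Itgb8 0.081 and Nid2 0.071. With 1 array left out Agrn ran from -0.0014 to 0.19, Col18a1 from -0.21 to 0.15, Itga3 from -0.025 to 0.073, Itgav from -0.037 to 0.086, Itgb8 from -0.21 to 0.15, Lamb1 from -0.010 to 0.13 and Nid2 from -0.30 to 0.14. Probe sets below the median level may lie near background, which limits what a difference there can show.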
